A study of Bos taurus with 8 samples.

Results

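Some genes were small enough, or named sparsely enough, that the 3 kb windows in which MIRA-Seq reads were counted carried their symbol only once. These single-window genes were taken from chromosomes 1 to 29 of the bovine build UMD v3.1: a window was kept when its gene symbol did not begin with LOC, the prefix of genes without an established name, and when no other window of that chromosome carried the symbol. The rule found 1268 windows with 1267 distinct symbols, since RPS27 qualified on chromosome 3 and on chromosome 17. They were 1268 of 902984 windows in the whole data set, 0.378% of the 335024 windows with a gene name on these chromosomes, and 7.79% of the 16268 named genes. The rule used names and positions only and no read count. A coding exon was listed for 1051 of the windows and none for 217, of which 178 held a microRNA gene. Long genes such as CUX1, a homeobox regulator, and NRG4, a growth factor, qualified because only 1 window carried their name here.

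The libraries came from dermal fibroblast cultures at passage 5, grown from shoulder skin biopsies of 4 Holstein heifers, a dairy breed, and 4 Angus heifers, a beef breed, of the same age. The cultures had received no lipopolysaccharide or other treatment, each came from a different animal, and 1 library was made per culture. Cultured fibroblasts are only the cells of the skin that grew under these conditions. DNA libraries hold no expressed markers, so the cell type was not checked here. Breed went together with how the calves had been reared, and the 2 cannot be told apart.

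MIRA-Seq is a pull-down: sheared DNA is captured by methyl-CpG binding proteins, and fragments with many methylated CpG sites are recovered best. Levels are given as CPM, reads per 1000000 reads counted in windows, so a high level can reflect dense CpG, full methylation or both. No library of DNA before the pull-down was used, and the part of CpG density, copy number and pull-down efficiency in the levels below was not tested. Genes that fit in a single window include many without introns. Among them are histones, olfactory receptors and other receptors with 7 membrane passes, keratin-associated proteins, and retrogenes, which are copies made from spliced messages and often used in the testis. CpG islands at the promoters of housekeeping and developmental genes are known to stay unmethylated in most somatic cells, while coding exons away from promoters are commonly methylated.

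The windows of each library held 18691111 to 35525554 reads, and between 0.138 and 0.215% of them fell in the single-window genes. A median member received 10 to 32 reads per library, and 3 reads were worth 0.0844 to 0.161 CPM. Holstein 1 and Angus 3 stood apart: the fullest 1% of windows took 69 and 72.4% of their reads against 46.8 to 57.4% in the other 6 libraries, and windows outside the placed chromosomes took 20 and 26.1% against 10.6 to 16.1%. Their mean level over members was also the lowest, 1.15 and 1.09 CPM against 1.31 to 1.70 CPM. The tests over libraries, the breed difference in mean level and the breed calls were repeated without them. Counts and medians of groups of members, and counts of separated breeds, were not. The order of the members was nonetheless much alike in all libraries, with Spearman correlations over the 1268 members of 0.91 to 0.96 among the 28 library pairs, a description of libraries that share CpG content at each window.

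Single-window genes carried more reads than the DNA on either side. Their median level was 0.750 CPM, with quartiles at 0.343 and 1.89 CPM, while the median of their flanks, the mean of the window before and the window after, was 0.622 CPM. Of 1267 members with both flanks, 735 (58.0%) lay above them and 404 (31.9%) lay at least 2-fold above. For comparison, 45.7% of all windows with a gene name on these chromosomes lay above their flanks and 15.8% at least 2-fold above, at a median of 0.351 CPM. The flanks of such a window can belong to its own gene, which the rule excludes for members, so the shares are not like for like. MUC2, a mucin gene in the last window of chromosome 29, had no window after it and was left out of these comparisons.

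The excess was present in every library. The mean over members was 1.15, 1.56, 1.56 and 1.70 CPM in Holstein 1 to 4 and 1.31, 1.54, 1.09 and 1.64 CPM in Angus 1 to 4. The flanks had 0.960, 1.30, 1.26 and 1.38 CPM in the Holstein libraries and 1.10, 1.22, 0.877 and 1.31 CPM in the Angus libraries. The difference between member and flank was 0.269 ± 0.0571 CPM (SD, n = 8 libraries), positive in 8 of 8, with p = 0.00781 by an exact two-sided sign-flip test over libraries, the smallest value this test can give, and the same value after adjustment over 3 comparisons. Without Holstein 1 and Angus 3 the difference was 0.290 CPM, positive in 6 of 6 libraries, with an adjusted p of 0.0312 by the exact test, again the smallest that this number of libraries allows. All libraries share the same windows, so the sign-flip tests here and below measure agreement between libraries. They do not cover the spread between genes.

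The excess was larger in windows with a coding exon. In these 1051 windows the median level was 0.832 CPM over flanks of 0.656 CPM, and 633 (60.3%) lay above their flanks. In the 217 without a coding exon the median was 0.525 CPM over flanks of 0.480 CPM, and 102 (47.0%) lay above. The mean level was 1.24, 1.65, 1.66 and 1.80 CPM in Holstein 1 to 4 and 1.37, 1.64, 1.18 and 1.74 CPM in Angus 1 to 4 for coding windows. It was 0.747, 1.11, 1.09 and 1.22 CPM in Holstein 1 to 4 and 0.994, 1.07, 0.656 and 1.16 CPM in Angus 1 to 4 for the rest. Coding windows were higher by 0.526 ± 0.0673 CPM (SD, n = 8), in 8 of 8 libraries (adjusted p = 0.00781, exact sign-flip test). The difference was 0.315 CPM when members in or beside the fullest 1% of windows were left out and 0.284 CPM between the class medians, each in 8 of 8 libraries. Relative to their own flanks they were higher too: the log2 ratio of mean member to mean flank was 0.27 to 0.36 across libraries for coding windows and 0.04 to 0.21 for the others, a difference of 0.18 ± 0.06 (SD, n = 8; adjusted p = 0.00781, exact sign-flip test). Without Holstein 1 and Angus 3 the 2 differences were 0.532 CPM and 0.18 (adjusted p = 0.0312 for each, exact test). The contrast was not limited to members. Other gene windows had medians of 0.485 CPM with a coding exon and 0.314 CPM without, and 49.0 and 44.0% lay above their flanks. Among single-window genes with a LOC symbol, 66.6% of those with a coding exon lay above. For all of them, the coding ones included, it was 64.5%, so these 2 shares are not a coding against non-coding split.

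**Figure D1:**
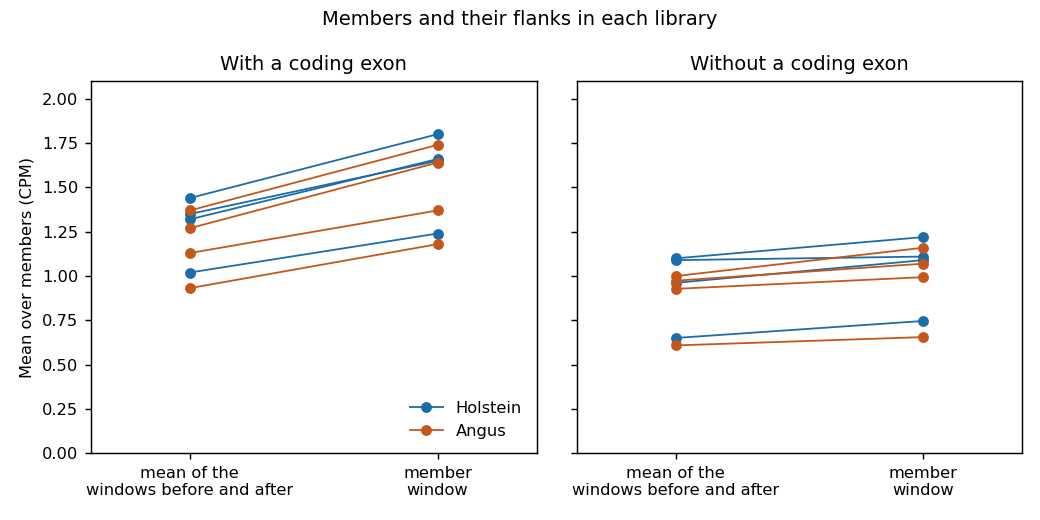
Mean level over members (CPM) in each of the 8 libraries, for the flanks (mean of the windows before and after, left of each panel) and the member windows (right), joined by a line per library and coloured by breed. All lines rise in both panels, from 0.932 to 1.44 CPM up to 1.18 to 1.80 CPM with a coding exon and less steeply without one, and the Holstein and Angus libraries interleave.

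The rise was 1 window wide. In windows 3 to 30 kb away on either side, the median over coding members stayed between 0.540 and 0.653 CPM (median of the 8 libraries), against 0.888 CPM in the member window itself. For members without a coding exon the surrounding medians were 0.382 to 0.540 CPM and the member window had 0.592 CPM. The range over libraries was wide in both classes, from 0.556 to 0.985 CPM at the coding windows and from 0.302 to 0.704 CPM at the others. Member and flank levels went together across members (Spearman rho 0.55 over 1050 coding members and 0.75 over 216 others with reads in both), and this is a description only, since neighbouring windows share base composition and fragments.

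**Figure D2:**
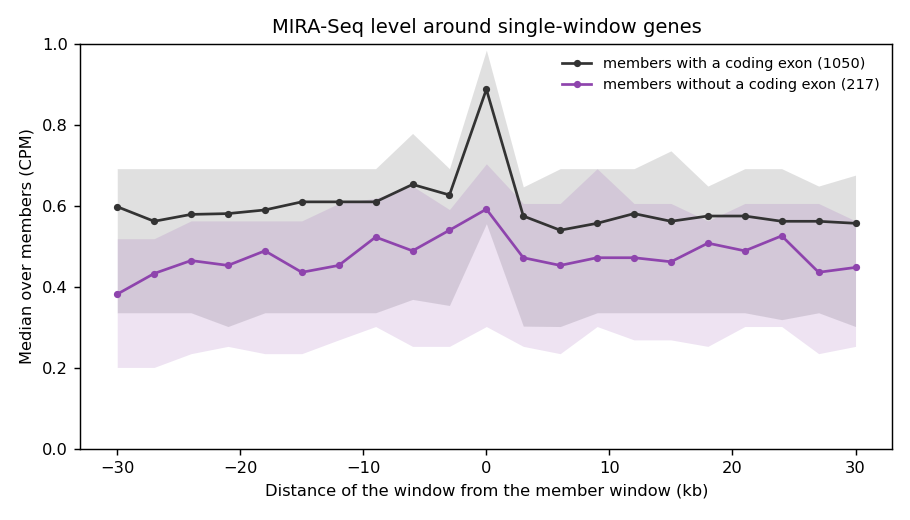
Median level over members (CPM) by distance of a window from the member window (kb), for members with and without a coding exon, where points are the median of the 8 libraries and the shading spans the lowest to the highest library. Coding members form a peak of 0.888 CPM at distance 0 over surroundings of 0.540 to 0.653 CPM, and the others a smaller one of 0.592 CPM.

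Which exon was listed separated the coding members further. The files give 1 coding exon number per window. For 699 members it was exon 1, the case for any gene with an undivided coding part, and 462 of these (66.1%) lay above their flanks, with a median log2 ratio of 0.69. For 352 members a later exon was listed, and 171 (48.7%) lay above, with a median log2 ratio of -0.03. The median levels ran the other way, at 0.707 CPM with exon 1 and 1.01 CPM with a later exon. The flanks of the latter were also fuller, at 0.931 against 0.505 CPM. The listed number is not the number of exons.

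Counts also differed with the neighbourhood. Among coding members whose flanks carried no gene name, 305 of 396 (77.0%) lay above their flanks, with a median log2 ratio of 0.94. Among those nested in a single other gene, with the same name on both sides, 58 of 87 (66.7%) did, with a median of 0.82. Between 2 different genes it was 128 of 280 (45.7%), with a median of -0.07, and next to 1 named window 142 of 287 (49.5%), with a median of -0.03. Members without a coding exon and with nameless flanks lay above them in 64 of 126 cases, with a median log2 ratio of 0.03. When only members with nameless flanks were used, the difference between coding and other members in log2 ratio was 0.46, and the member minus flank difference was 0.474 CPM, each in 8 of 8 libraries. These groups of members are given as counts and medians without a test of their own.

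Other short genes gave similar counts in part. Single-window LOC genes, 2896 in number, lay above their flanks in 64.5% of cases, at a lower median level of 0.373 CPM over flanks of 0.252 CPM. Their step was at least as large as that of the members. The median log2 ratio was 0.48 against 0.32, and 33.3% against 31.9% lay at least 2-fold above. Windows of the 1938 named genes carried by 2 windows, just outside the rule, had a median of 0.768 CPM and flanks of 0.784 CPM, and 49.9% lay above them. A flank of these windows can be the other window of the same gene, which holds their share near 50%. It is therefore not a like comparison for the members. Members were spread unevenly, with 5 on chromosome 24 and 74 on chromosome 25, although chromosome 24 has 20904 windows and chromosome 25 14301, and 140 of them had another member as a direct neighbour. The longest such run held 10 windows, in the microRNA cluster of chromosome 21 described below.

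Most receptors grouped by prefix, apart from odorant and taste receptors, stood above their surroundings. Vomeronasal and bitter taste receptor genes under other prefixes, listed after the values were seen, did not: 7 of 25 lay above their flanks. Families were set by symbol prefix, 20 in all, of which 16 held at least 5 members and 3 none (small nucleolar, transfer RNA and metallothionein genes), and 653 members fell in a family. The 49 G protein-coupled receptor genes other than odorant and taste receptors had a median level of 1.94 CPM over flanks of 0.404 CPM. Of these, 46 lay above their flanks and 38 at least 2-fold above. GPR146 led with 13.4, 14.2, 17.1 and 15.8 CPM in Holstein 1 to 4 and 11.1, 14.3, 13.0 and 18.9 CPM in Angus 1 to 4, and lay within C25H7orf50 (chromosome 25, 42273101 to 42276100, minus strand, coding exon 1). The breeds overlapped fully there. SSTR5, a somatostatin receptor, had a mean of 10.3 ± 1.99 CPM (SD, n = 8) over flanks of 2.33 CPM, and CHRM4, a muscarinic acetylcholine receptor, 9.31 ± 1.42 CPM over flanks of 1.30 CPM.

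The receptor family was not uniformly full. MC3R, a melanocortin receptor, and DRD1, a dopamine receptor, had 4.25 and 2.79 CPM over flanks of 0.226 and 0.202 CPM. HTR1A, a serotonin receptor, had 0.628 CPM over 0.145 CPM. The lowest was LPAR6, a receptor for lysophosphatidic acid nested in the retinoblastoma gene RB1, with 0.0763 CPM, which is under what 3 reads are worth in any library. The exceptions to the pattern were VN1R1, GPR171 and TAAR2, which lay below their flanks.

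Odorant receptors had lower levels, and fewer of them lay above their flanks. The 118 olfactory receptor genes had a median of 0.293 CPM over flanks of 0.155 CPM, and 93 of them (78.8%, against 93.9% of the receptors above) lay above, 58 at least 2-fold. In single libraries these shares were 62.7 to 78.8% and 89.8 to 93.9%. The median flank level of the olfactory receptor genes was within the range that 3 reads are worth. Only 10 olfactory receptor genes reached a mean of 1 CPM. OR6Q1 was the highest, at 5.17 ± 0.887 CPM (SD, n = 8) over flanks of 0.946 CPM, and OR6C1 the lowest at 0.0238 CPM, under the worth of 3 reads. OR10S1 had one of the steepest steps of all members, 3.97 ± 0.719 CPM over flanks of 0.114 CPM, a log2 ratio of 5.12. The 9 bitter taste receptors ranged from 0.0687 CPM in TAS2R9 to 0.905 CPM in TAS2R38, 5 of them above their flanks.

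Cell adhesion and zinc finger genes were also full. The 14 claudin and connexin genes, which build tight and gap junctions, had a median of 1.5 CPM over flanks of 0.816 CPM, and 11 lay above, led by CLDN4 with 6.24 ± 0.787 CPM. CLDN25 was the lowest at 0.524 CPM. Of the 14 zinc finger protein genes, 11 lay above their flanks, with a median of 2.16 CPM over 0.747 CPM. ZNF648 reached 9.09 ± 1.30 CPM over flanks of 0.970 CPM, while ZNF580 had 0.265 CPM.

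The 10 clustered protocadherin genes, neuronal adhesion molecules encoded by large first exons on chromosome 7, had a median of 1.20 CPM over flanks of 0.278 CPM. Of these, 8 stood above their surroundings, PCDHB6 most of all, with 1.19 ± 0.286 CPM over 0.0363 CPM (log2 ratio 5.03, 252 reads against 16 in both flanks summed over the 8 libraries). The fullest was PCDHGC5 with 3.35 ± 0.676 CPM, inside PCDHGB4, and the reverse was PCDHA10, with 0.210 CPM between neighbours of 9.50 and 10.5 CPM. PCDHGB3 likewise had 0.210 CPM beside flanks of 2.54 CPM.

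**Figure D3:**
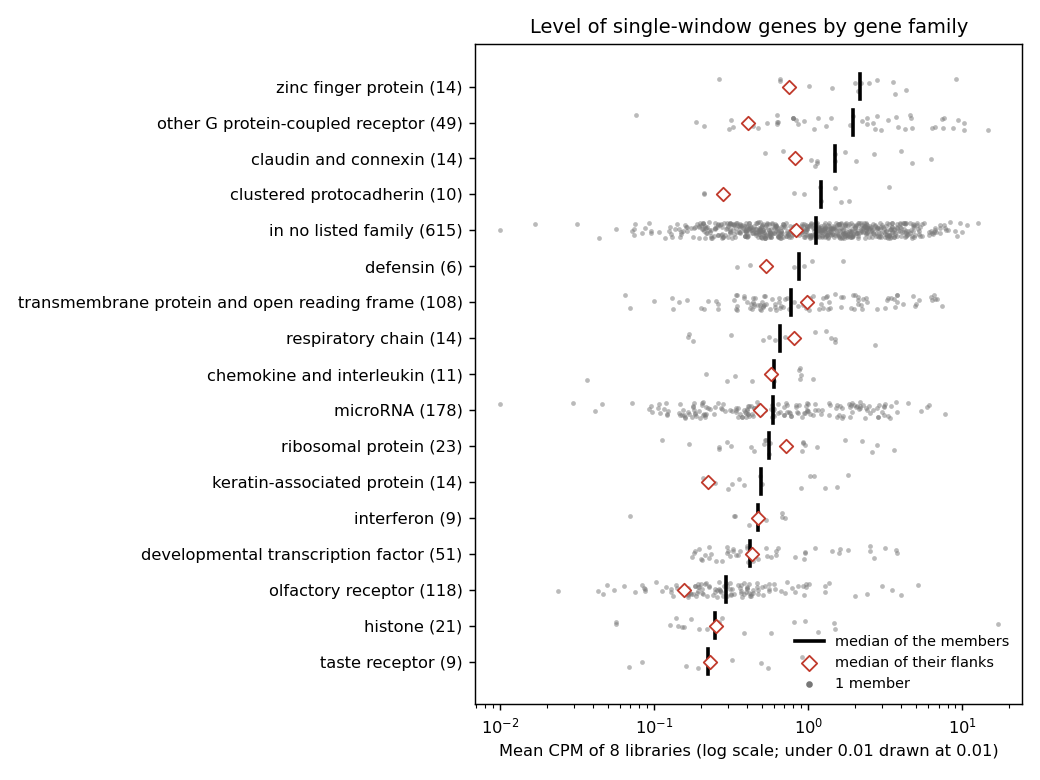
Mean level of each single-window gene over the 8 libraries (CPM, logarithmic axis) by gene family, for families with at least 5 members and for the 615 members in no listed family, with dots for members, black bars for family medians and red diamonds for the medians of their flanks. Receptor, protocadherin, zinc finger, olfactory and keratin-associated families have medians above those of their flanks, while ribosomal protein (0.553 against 0.718 CPM) and respiratory chain genes (0.658 against 0.804 CPM) do not.

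Ribosomal protein and respiratory chain genes had medians below those of their flanks. The 23 ribosomal protein genes, cytosolic and mitochondrial, had a median of 0.553 CPM over flanks of 0.718 CPM, and 10 lay above. RPL7A was highest at 3.61 ± 0.708 CPM and the RPS27 window of chromosome 17 lowest at 0.113 CPM. RPL10L, an intronless copy of RPL10, differed from the others with 2.78 ± 0.691 CPM over flanks of 0.0906 CPM. Among 14 respiratory chain genes, 5 lay above their flanks, with COX8A at 2.70 CPM and COX7A1 at 0.165 CPM. The 108 transmembrane protein and open reading frame genes had a median of 0.777 CPM over flanks of 0.979 CPM, and 54 lay above. FAM166A was the highest of these at 7.36 CPM and C17H4orf46 the lowest at 0.0647 CPM, under the worth of 3 reads.

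Developmental transcription factors were low in most cases. The 51 members had a median of 0.420 CPM over flanks of 0.431 CPM, and 11 reached 1 CPM. KLF13, a zinc finger activator, was highest with 3.75 ± 0.572 CPM (SD, n = 8) over 0.904 CPM, and ATOH7, a factor of retinal development, lowest with 0.176 CPM. JUN and JUNB, subunits of the AP-1 activator, had 0.203 and 0.252 CPM. The 11 HOX genes, which pattern the body axis, were higher than the remaining 40 factors, at a median of 0.935 against 0.377 CPM, a split made after the values were seen. HOXD12 had 2.66 CPM, HOXB1 2.51 CPM and HOXC11 0.275 CPM.

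Most histone genes were low. The 21 members had a median of 0.249 CPM over flanks of 0.250 CPM, and 8 lay above, while 4 reached 1 CPM. H1FNT, a testis-specific linker histone, and HIST3H2A had 0.0563 CPM each. H3F3C, HIST3H2BB and HIST2H2AB were fuller, at 1.48, 1.47 and 1.16 CPM over flanks of 0.737, 0.229 and 0.250 CPM. HIST1H1C, which encodes a linker histone, was the highest of all 1268 members (chromosome 23, 31636593 to 31639592, plus strand, coding exon 1). It had 27.7, 14.7, 11 and 11.3 CPM in Holstein 1 to 4 and 20.6, 17.0, 15.2 and 17.5 CPM in Angus 1 to 4, against 0.0886 CPM before and 0.155 CPM after. Every library was high there, and the breeds overlapped. Summed over libraries it held 3439 reads and its flanks 50, a log2 ratio of 7.12. The reads were stacked: the deepest position was a median of 17.6 times the mean depth of the window, against 7.77 in the median member, and reached 401 reads in the deepest library, against 29 to 103 for the other 9 of the 10 fullest members. The part of repeated or duplicate reads in this value was not tested.

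The other 9 fullest members were GPR146, GPER, DNAJB8, GPR20, SSTR5, PANX2, TRIM32, CHRM4 and TUBB6. GPER, an oestrogen-binding membrane receptor that the prefixes left outside the receptor family, had 12.6 ± 2.06 CPM over flanks of 2.97 CPM. DNAJB8, a chaperone gene used mainly in the testis, had 10.7 ± 1.63 CPM, and TUBB6, a tubulin gene, 9.24 ± 1.19 CPM. PANX2, a channel gene, ranged from 7.69 to 12.5 CPM. TRIM32, a ubiquitin ligase gene nested in ASTN2, had 9.61, 10.6, 9.99 and 10.4 CPM in Holstein 1 to 4 and 7.47, 8.62, 7.93 and 12.7 CPM in Angus 1 to 4, while its ASTN2 neighbours had 0.687 and 1.12 CPM. The Holstein values fell inside the Angus range.

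The steepest steps up, among members where the window or its flanks reached 1 CPM, were those of HIST1H1C, C5H12orf12, RBMX, OR10S1 and PCDHB6, with log2 ratios from 5.03 to 7.12. C5H12orf12, an open reading frame, had 6.37 ± 1.13 CPM over 0.122 CPM. RBMX, listed on chromosome 15 with coding exon 1, had 1.30 ± 0.523 CPM over 0.0253 CPM, and its flanks held 11 reads in all libraries together, so its ratio of 5.69 is imprecise. The steepest steps down were HSFY2, FOXD4L1, PCDHA10, PRM1 and C11H2orf78, with log2 ratios of -8.24 to -3.99. In 4 of them a single overfull neighbour decided the ratio: the window after held 88.5 CPM at HSFY2, 194 CPM at FOXD4L1, 41.5 CPM at PRM1 and 37.0 CPM at C11H2orf78, and these 4 windows carried no gene name. When members in or beside the fullest 1% of windows were left out, the members lay 0.291 CPM above their flanks.

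**Figure D4:**
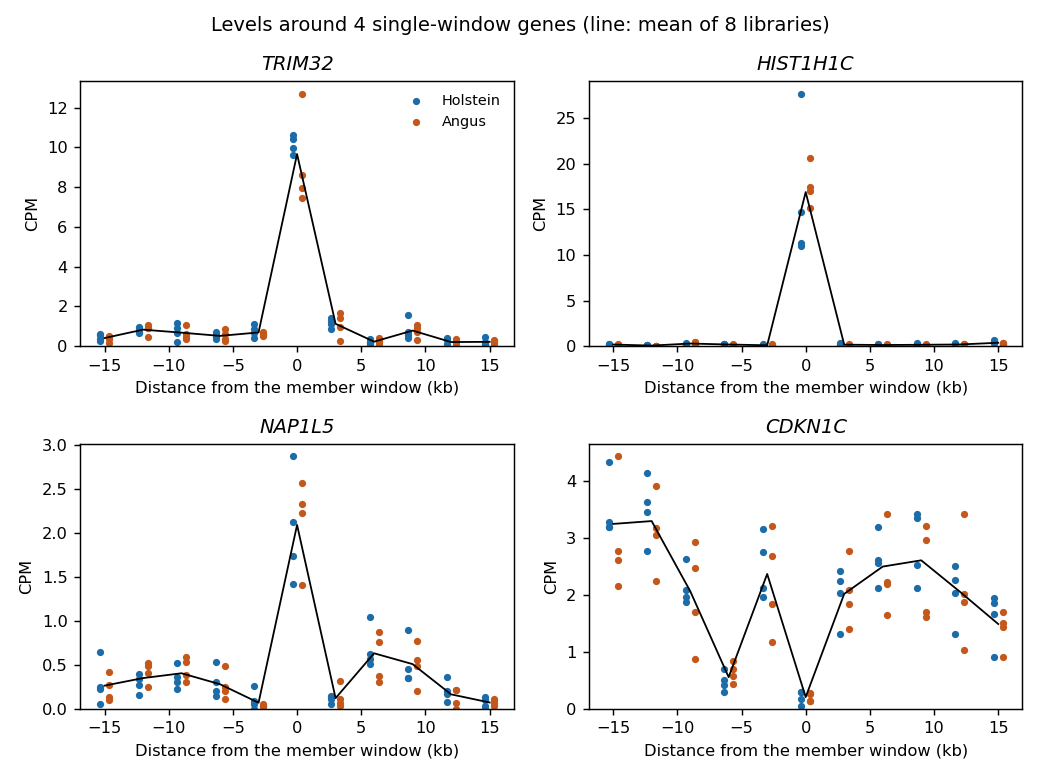
CPM in the member window (distance 0) and the 5 windows on each side (kb) at 4 genes, each on its own scale, with points for libraries coloured by breed and lines for the mean of the 8 libraries. TRIM32, HIST1H1C and NAP1L5 are peaks 1 window wide with means of 9.66, 16.9 and 2.09 CPM, and CDKN1C is a trough of 0.206 CPM between neighbours of 2.37 and 2.02 CPM.

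Skin and immune families were of middle or low level. The 14 keratin-associated protein genes, for the matrix of hair, had a median of 0.491 CPM over flanks of 0.223 CPM, and 11 lay above. KRTAP10-8 was highest at 1.82 ± 0.307 CPM and KRTAP15-1 lowest at 0.206 CPM, below its flanks of 0.458 CPM in 8 of 8 libraries. KRTAP10-12, inside TSPEAR, had 1.28 ± 0.480 CPM over 0.115 CPM. S100A9 and S100A8, genes for calcium-binding proteins of neutrophils, had 2.63 and 0.837 CPM.

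The 11 chemokine and interleukin genes had a median of 0.599 CPM over flanks of 0.574 CPM, and 7 lay above. CSF3, the granulocyte colony factor, was the highest at 1.07 ± 0.296 CPM and the only one to reach 1 CPM, and CXCL11, an interferon-induced chemokine, the lowest at 0.0364 CPM, under the worth of 3 reads. Between them lay CCL2 at 0.429 CPM, CCL3 at 0.881 CPM and TNF, the tumour necrosis factor, at 0.885 CPM. A window labelled IL6 on chromosome 8, counted among the 11, had 0.333 CPM. The paper lists IL6 on a different chromosome, so this value is not read as the level of that gene. The 9 interferon genes ranged from 0.0697 CPM in IFNB3 to 0.707 CPM in IFNT2, the trophoblast interferon, and 4 lay above their flanks. The 6 defensin and cathelicidin genes ranged from 0.343 CPM in DEFB402 to 1.68 CPM in CATHL3, with 4 above.

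Genes used mainly by testis germ cells were compared as a list of 31 members put together after the values were seen. Their median was 1.93 CPM over flanks of 0.751 CPM, and 21 lay above, 18 at least 2-fold. DDI1, nested in PDGFD, had 4.09 ± 0.938 CPM over 0.146 CPM. ACTL9 and ACTL7B, actin-like genes of the sperm head, had 5.12 ± 0.962 and 6.76 ± 0.576 CPM over 0.350 and 1.15 CPM, and PDHA2, the testis copy of a pyruvate dehydrogenase subunit, 1.76 ± 0.343 CPM over 0.220 CPM. The protamine genes PRM1, PRM2 and PRM3, which pack sperm DNA, lay side by side with TNP2 at 1.19, 1.96, 3.74 and 2.12 CPM. H1FNT, CAPZA3, HSFY2 and HIST1H2BA stayed low, at 0.0563, 0.311, 0.147 and 0.381 CPM.

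The microRNA genes, 178 of the 217 members without a coding exon, had a median of 0.586 CPM over flanks of 0.482 CPM, and 90 (50.6%) lay above. They ranged from MIR185, with 7.74 ± 1.56 CPM (SD, n = 8) over 5.60 CPM, to MIR876, with 1 read in all 8 libraries together. MIR2413 and MIR187, at 5.38 and 3.28 CPM over 0.593 and 0.620 CPM, were among the 37 that stood at least 2-fold above their flanks. MIR21 and MIR155, which act in inflammation, had 0.373 and 0.289 CPM, and MIR146A, which dampens it, had 1.16 CPM over 0.317 CPM.

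On chromosome 21, 18 microRNA members between 67415663 and 67607662 formed a domain of their own. This is the cluster of the DLK1-DIO3 region, known in mammals for genes read from a single parental chromosome. Its members had a median of 2.56 CPM, from 0.976 CPM in MIR154 to 6.11 CPM in MIR411, against 0.454 CPM in the 160 microRNA members elsewhere, a grouping made after the values were seen. Here the flanks were as full, with a median of 2.66 CPM, and 8 of the 18 lay above them. Most of these flanks were themselves members of the cluster, so the comparison was largely of the cluster with itself. MIR411 had 6.11 ± 1.30 CPM and MIR382 5.89 ± 0.902 CPM, while MIR154, the neighbour of MIR382, had 0.976 ± 0.339 CPM. Without these 18 the gap between coding and other members was 0.694 CPM in place of 0.526 CPM.

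Of the other 39 members without a coding exon, pseudogenes and RNA genes among them, 12 lay above their flanks, at a median of 0.469 CPM. RN5-8S1, a ribosomal RNA gene, had 0.253, 3.77, 1.66 and 6.36 CPM in Holstein 1 to 4 and 7.47, 2.57, 1.61 and 10.9 CPM in Angus 1 to 4, a spread found in both breeds. RN18S1, another ribosomal RNA gene, was the only member without a read in any library. TERC, the RNA template of telomerase, had 0.159 CPM.

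Single-window members known to be imprinted in other mammals, listed after the values were seen, differed in direction. NAP1L5, inside HERC3 (chromosome 6, 37508282 to 37511281), had 1.42, 2.12, 1.74 and 2.87 CPM in Holstein 1 to 4 and 2.23, 2.33, 1.41 and 2.57 CPM in Angus 1 to 4, over flanks of 0.0950 CPM. MKRN3, a ring finger gene, had 1.68 ± 0.499 CPM over 0.0978 CPM. Both stood above their flanks in 8 of 8 libraries, and neither breed was set apart. PHLDA2, a placental growth gene, had 1.87 ± 0.584 CPM beside flanks of 2.36 CPM. CDKN1C, an inhibitor of the cell cycle on the same chromosome, had 0.206 CPM between windows of 2.37 and 2.02 CPM, lower in 8 of 8 libraries, with 43 reads against 922 in both flanks.

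Between the breeds, the members as a whole did not separate. The mean level over members was 1.49 ± 0.235 CPM in Holstein and 1.39 ± 0.247 CPM in Angus (SD, n = 4 each), a difference of 0.0966 CPM within overlapping ranges. With TMM library sizes, which allow for the reads taken by the fullest windows, it was -0.0420 CPM. No test was made of this value. Window by window, 564 members had at least 1 CPM in at least 4 libraries and were tested with all 115360 such windows by edgeR's likelihood-ratio test, and the other 704 were too empty. A window was called differentially methylated at a false discovery rate (FDR) under 0.1 and a fold change of at least 2.

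The called members were 2, MAB21L2 and LRRN4CL. One was higher in Holstein, 1 of 564 members (0.177%) against 0.039% of all windows tested, and the other was higher in Angus (0.177% against 0.192%), so at such counts the members gave no share that stands out from the background. Without the requirement of a 2-fold change IFITM3 was added. An unadjusted p under 0.05 was found for 32 members (5.67%) and for 4.94% of all windows tested. The log2 fold changes of 9 in 10 members lay between -0.34 and 0.28, with a median standard error of 0.19, and only 3 members reached a 2-fold change.

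MAB21L2, a developmental gene of eye and body wall with an undivided coding part, lies inside an intron-rich gene, LRBA (chromosome 17, 7224294 to 7227293, minus strand, coding exon 1). The 4 Holstein libraries held 29, 56, 70 and 65 reads there and the 4 Angus libraries 114, 126, 88 and 124. Scaled to CPM, Holstein had 1.47, 2.42, 2.65 and 1.83 and Angus 3.98, 4.38, 2.96 and 6.63, so that every Angus library lay above every Holstein library. The log2 fold change of Holstein over Angus was -1.21 (SE 0.18, edgeR FDR = 1.21e-07). The paper also lists this window as more methylated in Angus, without an expression difference of the gene. The LRBA windows on either side held 0.0451 ± 0.0613 and 0.196 ± 0.121 CPM in Holstein and 0.0734 ± 0.0347 and 0.187 ± 0.0755 CPM in Angus, too few reads to show a breed difference. The member itself stood above its flanks in all 8 libraries, with a log2 ratio of 4.71.

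LRRN4CL, a gene for a membrane protein of unsettled function, went the other way (chromosome 29, 41708719 to 41711718, minus strand, coding exon 1). Its reads were 22, 34, 41 and 64 in Holstein and 15, 27, 14 and 10 in Angus, or 1.11, 1.47, 1.55 and 1.80 CPM against 0.524, 0.939, 0.470 and 0.535 CPM. All Holstein libraries were higher, with a log2 fold change of 1.10 (SE 0.23, edgeR FDR = 0.00190). The paper does not list this window among its differentially methylated regions. The call rested on few reads and on Angus 4: without that library the log2 fold change was 0.99, just short of 2-fold. It was also not made by DESeq2, which gave the window no adjusted p, or with a filter of 1 CPM in all 8 libraries, which left the window untested. The BSCL2 window after it held 1.47 ± 0.529 CPM in the Holstein libraries and 0.996 ± 0.325 CPM in the Angus libraries (SD, n = 4 each), with overlapping values.

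IFITM3, an interferon-induced inhibitor of viral entry, had 2.23, 2.34, 2.46 and 3.41 CPM in the 4 Holstein libraries and 1.08, 2.40, 0.840 and 1.23 CPM in the 4 Angus libraries, where Angus 2 lay among the Holstein values. Its log2 fold change was 0.78 (SE 0.20, edgeR FDR = 0.0559). CLIC3, an intracellular chloride channel gene, averaged 1.68 ± 0.481 CPM over the Holstein and 2.73 ± 1.35 CPM over the Angus libraries (log2 fold change -0.75, edgeR FDR = 0.145), and was called only without Holstein 1 and Angus 3. RN5-8S1 passed the fold threshold (-1.04) but its values overlapped between breeds (edgeR FDR = 0.739). These 3 were chosen for mention after their values were seen.

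**Figure D5:**
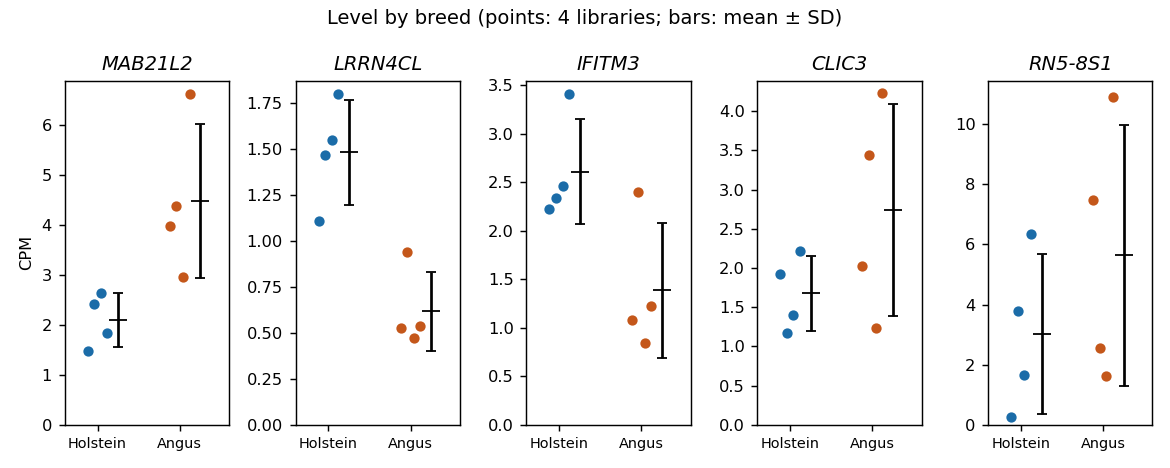
Level (CPM) of 5 members in the 4 Holstein and 4 Angus libraries, each gene on its own scale that starts at 0, with points for libraries and bars for the mean ± SD (n = 4). MAB21L2 and LRRN4CL separate the breeds, IFITM3 does so except for Angus 2, and CLIC3 and RN5-8S1 overlap.

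Complete separation of the breeds in CPM, with every library of a breed above every library of the other, was seen in 7 of 564 members (1.24%) against 1.31% of all windows tested. Holstein was higher in 6, namely LRRN4CL, TSSK3, ATP5I, RNASE13, C11H2orf78 and MIR2402, and Angus in MAB21L2. With TMM library sizes, a choice made after the values were seen, the split changed to 10 members higher in Holstein and 8 in Angus, 3.19% of the members against 2.63% of all windows tested, and LRRN4CL, C11H2orf78 and MAB21L2 were in both sets. Apart from LRRN4CL and MAB21L2, the lowest edgeR FDR was 0.909, in TSSK3, among members separated in CPM and 0.659, in SERTAD2, among those separated with TMM library sizes. Of the chemokine, interleukin, interferon, defensin and cathelicidin genes only CSF3 (log2 fold change -0.20) and CATHL3 (0.09) were full enough to be tested, each with an edgeR FDR of 1.00, and for the others no comparison of breeds was made.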

How the data were processed

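MIRA-Seq was carried out by the authors on genomic DNA of 8 fibroblast cultures (passage 5), and reads were aligned to UMD v3.1 with NextGENe 2.3.4 after base calling with CASAVA 1.7. The authors deposited, per library, raw read counts in consecutive 3 kb windows with 1 gene name and 1 coding exon number per window, without normalization, and the highest and mean depth of each window as a coverage signal. How duplicate and multiply placed reads were treated is not given in the sources used here. Window counts summed to 18691111 to 35525554 reads per library, which set the CPM. Values after ± are SDs between libraries and not intervals for counting error.

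Members were found by symbol, and 1181 of the 1268 matched a symbol or synonym in RefSeq's ARS-UCD2.0 gene table, which was used for names only. The members, gene families and lists were chosen with earlier results of these data known. Named genes were those called between breeds, the 10 fullest members, the highest and lowest of each family of at least 5, the 5 largest and 5 smallest ratios to flanks, and the immune, hair, histone and imprinted genes. All other genes were chosen after their values were seen. Log2 ratios to flanks used no pseudocount.

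Library means were compared by exact two-sided sign-flip tests with Benjamini-Hochberg adjustment over 3 comparisons (Python 3.11.15, numpy 2.4.6, pandas 2.3.3, scipy 1.17.1). Breeds were compared in R 4.3.3 with edgeR 4.0.16 (TMM, likelihood-ratio test, CPM of at least 1 in at least 4 libraries, FDR < 0.1, fold change of at least 2, Benjamini-Hochberg over all windows). Procedures were tested on simulated data. Alternatives were edgeR's quasi-likelihood test, DESeq2 1.42.0, other normalizations, filters, thresholds and flanks, each library left out in turn, and a block for the number of the animal. The cultures came from separate animals.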

Additional observations from a re-analysis of the deposited data

Results flagged for a closer look

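In LRRN4CL, Angus 2 lay far from the other Angus libraries, at 0.939 CPM against 0.470 to 0.535 CPM, a gap of 0.862 of the breed's range. This was 1 of 58 groups of 4 libraries examined, and chance alone flags about 1 in 20 groups.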

How the results depend on the processing

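The differences between members and flanks (0.138 to 0.474 CPM), between coding and other members (0.284 to 0.694 CPM) and between their log2 ratios (0.10 to 0.46) kept their direction and stayed past the threshold under all 17, 14 and 17 alternatives run. Leaving out each library gave 0.259 to 0.279 CPM, 0.518 to 0.547 CPM and 0.17 to 0.19. The breed difference in mean level changed sign under TMM library sizes and ranged from -0.00490 to 0.210 CPM when each library was left out. The number of members called was 2 in the main edgeR fit. It was 1 with a CPM of at least 1 in all 8 libraries (LRRN4CL was not tested). It was also 1 with DESeq2, which gave LRRN4CL no adjusted p. The number ranged from 1 to 3 when each library was left out, with 1 without Angus replicate 4. It was 2 with the quasi-likelihood test (FDR = 0.00357 for MAB21L2 and 0.0703 for LRRN4CL). Over all alternatives the log2 fold change was -1.33 to -1.06 for MAB21L2 (FDR 4.65e-08 to 0.0196) and 0.99 to 1.31 for LRRN4CL (FDR 0.00109 to 0.0703). The labels give animals of both breeds the numbers 1 to 4 without saying that they were paired. With the number as a replicate block 3 members were called (RN5-8S1 added), the breed difference in mean level stayed at 0.0966 CPM, and the log2 fold changes were -1.22 and 1.11. Same-numbered libraries deviated together with correlations of -0.211, 0.0441, -0.0117 and 0.109, so not every library went best with its own number, and the numbers were not taken as pairs. Without the CPM filter 1267 members were tested and 3 called, MAB21L2, LRRN4CL and RN5-8S1, all of which had also passed the filter. All windows called numbered 267 in the main edgeR fit, more than the regions the paper lists at the same thresholds. They numbered 141 with the quasi-likelihood test, 141 with DESeq2 and 905 without the CPM filter. The number was 163 with the filter in all 8 libraries, 153 on chromosomes 1 to 29 alone, and 559 without Holstein 1 and Angus 3. Alternatives were chosen with the data known, and those without Holstein 1 and Angus 3 and without the chromosome 21 cluster after these values were seen.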

Other observations

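Vomeronasal and bitter taste receptor genes that carry other prefixes, 25 members, did not share the step of the odorant receptors: their median was 0.219 CPM beside flanks of 0.280 CPM, and 7 lay above. The list was put together after the values were seen. BOSTAUV1R-PS421, a pseudogene, was an exception with 2.89 CPM over 0.480 CPM.

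Proteasome and spliceosome genes, 15 members listed after the values were seen, had a median of 0.605 CPM beside flanks of 0.630 CPM, and 10 lay above. The 8 mitochondrial ribosomal protein genes had 0.735 CPM beside 0.878 CPM, with 3 above their flanks.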
